A study of Homo sapiens with 6 samples.

Results

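The E2F family (E2F1 to E2F8) and the RB-like genes RBL1 and RBL2 were described in HEL, a human erythroleukemia cell line, by poly(A) RNA sequencing. The 10 genes were taken by name, and all 10 were among the 31999 genes of the deposited table. HEL cells had been transduced with lentivirus carrying shCtrl, a non-targeting hairpin (3 libraries), or shTMIGD2, a hairpin against the immune receptor gene TMIGD2 (3 libraries). Both groups therefore carried a hairpin, all libraries came from this 1 line, and which of the study's TMIGD2 hairpins was used for these libraries is not given in the sources used here. The labels call the libraries of a group biological replicates.

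E2F proteins bind DNA near the start of genes for DNA replication and for entry into S phase, most of them as dimers with a DP protein. E2F1, E2F2 and E2F3 are known as activators, and the retinoblastoma protein holds them back until cyclin-dependent kinases phosphorylate it. E2F4 and E2F5 act mainly as repressors together with the RB-like pocket proteins p107 (RBL1) and p130 (RBL2), and E2F6 represses without any pocket protein, as part of a Polycomb complex. E2F7 and E2F8 bind DNA without a DP partner, repress E2F target genes late in S phase, and are known for their part in the endocycle, in which DNA is replicated without cell division. Megakaryocytes, a lineage to which HEL cells are related, also become polyploid.

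The value used for each gene was the authors' mean log2 CPM (CPM being counts relative to the size of a library), 1 value over the libraries of both groups. A mean of this kind shows how much RNA of each gene was present in the experiment as a whole. It does not show whether a gene differed between shTMIGD2 and shCtrl, and it carries no spread between libraries, so no comparison between the groups, no test and no error is given. For the same reason the knockdown was not checked here: TMIGD2 itself had a mean log2 CPM of 4.08 over both groups. The depth of each library is unknown from this file. Means ran from -3.76 to 13.92 with a median of -0.97, and 14000 genes stood at 0 or more. Levels of different genes were compared per kb of the representative GENCODE transcript, which gave a value for 22987 genes with a median of 0.31 log2 CPM per kb.

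The label of the cells was checked against marker genes by level. All 7 erythroid markers were above the median gene, among them GATA1 with a mean log2 CPM of 7.97 and the fetal globin gene HBG1 with 9.72. The 3 megakaryocytic markers lay between 6.16 and 10.54, the highest being ITGA2B, and the pan-leukocyte gene PTPRC had 7.49. The T cell genes CD3D and CD3E and the B cell gene MS4A1 were not among the genes listed. Of the epithelial and fibroblast markers, KRT8 was the highest at 2.04, and EPCAM, COL1A1 and COL1A2 were at -2.57, -0.80 and -3.40.

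The promoter sequences are given first, since they do not depend on any measured level. RefSeq promoter windows (GRCh38.p14), from 250 bases before to 50 bases after the gene start, were at hand for 8 of the 10 genes. E2F5 and E2F8 had none. E2F3 and RBL2 had 2 windows each, which made 10 windows. An E2F site was searched as any of the 4 strings TTTGGCGC, TTTCCCGC, TTTCGCGC and TTTGCCGC on both strands. E2F1, E2F2, E2F3 and RBL1 held at least 1, and E2F4, E2F6, E2F7 and RBL2 held none. Of all 27305 genes with a window, 3.99% held such a site. Among the 14292 of these that were also listed with a level, as all 10 genes were, the share was 5.6%. The last 90 bases before the start of the 4 genes with a site are printed below, read 5′ to 3′ on the strand of the gene, with the matches in capitals.

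E2F1, chr20:33686386-33686475, minus strand: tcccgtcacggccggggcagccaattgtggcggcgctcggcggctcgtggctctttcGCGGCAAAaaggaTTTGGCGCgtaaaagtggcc
E2F2, chr1:23531234-23531323, minus strand: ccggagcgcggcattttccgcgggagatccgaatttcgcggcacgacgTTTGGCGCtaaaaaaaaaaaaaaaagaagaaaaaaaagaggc
E2F3, chr6:20401789-20401878, plus strand: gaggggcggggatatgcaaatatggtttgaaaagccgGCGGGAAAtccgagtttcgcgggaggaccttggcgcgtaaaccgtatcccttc
RBL1, chr20:37095998-37096087, minus strand: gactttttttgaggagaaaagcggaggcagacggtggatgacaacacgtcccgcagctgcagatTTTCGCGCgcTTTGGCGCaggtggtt

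The sites lay close to the start in each of these genes. E2F1 had 1 match from base -33 to -26, read on the opposite strand as TTTGCCGC, and a second, TTTGGCGC, from -20 to -13. RBL1 likewise had 2, TTTCGCGC from -26 to -19 and TTTGGCGC from -16 to -9. Windows with 2 or more such matches made up 0.145% of the 35116 windows. E2F2 had a single TTTGGCGC from -42 to -35, and E2F3 a single TTTCCCGC on the opposite strand from -53 to -46, in the window of its first start. The window of the second start of E2F3 held none.

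After the sequences had been seen, a string shared by the activators was searched as well. TTTCGCGG was present in E2F1 (-37 to -30), E2F2 (-57 to -50) and E2F3 (-39 to -32) and in no window of the other 5 genes, against 0.509% of all genes with a window. This string was picked because E2F1, E2F2 and E2F3 share it, so its presence in them was fixed by the choice and tests nothing. In E2F1 it overlapped the first of its E2F matches, while in E2F2 and E2F3 it stood apart from theirs. RBL1 lacked it. For contrast, the same stretch is printed for E2F4, whose window held none of the strings searched, and for E2F7, whose window held no E2F site.

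E2F4, chr16:67192065-67192154, plus strand: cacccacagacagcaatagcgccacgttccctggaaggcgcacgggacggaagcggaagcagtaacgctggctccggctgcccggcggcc
E2F7, chr12:77065570-77065659, minus strand: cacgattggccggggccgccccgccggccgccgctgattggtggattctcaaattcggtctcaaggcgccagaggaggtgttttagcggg

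Further motifs were searched in the same windows. The CCAAT box, the site of the factor NF-Y, was searched as CCAAT on both strands and was found in 4 of the 8 genes, against 39.7% of all genes with a window. E2F7 had 4 copies, the first window of E2F3 also 4, E2F1 had 3, and RBL2 had 1 in its second window. The cell cycle homology region (CHR), which the MuvB complex binds in genes of late cell cycle phases, was searched as TTTGAA. It was found in E2F3 and RBL2, the genes with more than 1 window, against 18.2% of all genes. For 8 genes, the counts of the CCAAT box and of the CHR were near the shares over all genes. The full cyclic AMP response element, TGACGTCA, was in none of the 8, against 2.25% of all genes. These are matches of letters and were not tested as binding sites. The same search for E2F sites in well-known E2F target genes outside the family found at least 1 in 11 of 18 genes with a window. Over all genes with a window the share was 3.99%. The CCAAT box was in 13 of these 18 genes, against 39.7% of all genes. Since the 18 were listed as known E2F targets, their count of E2F sites tests nothing.

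**Figure D1:**
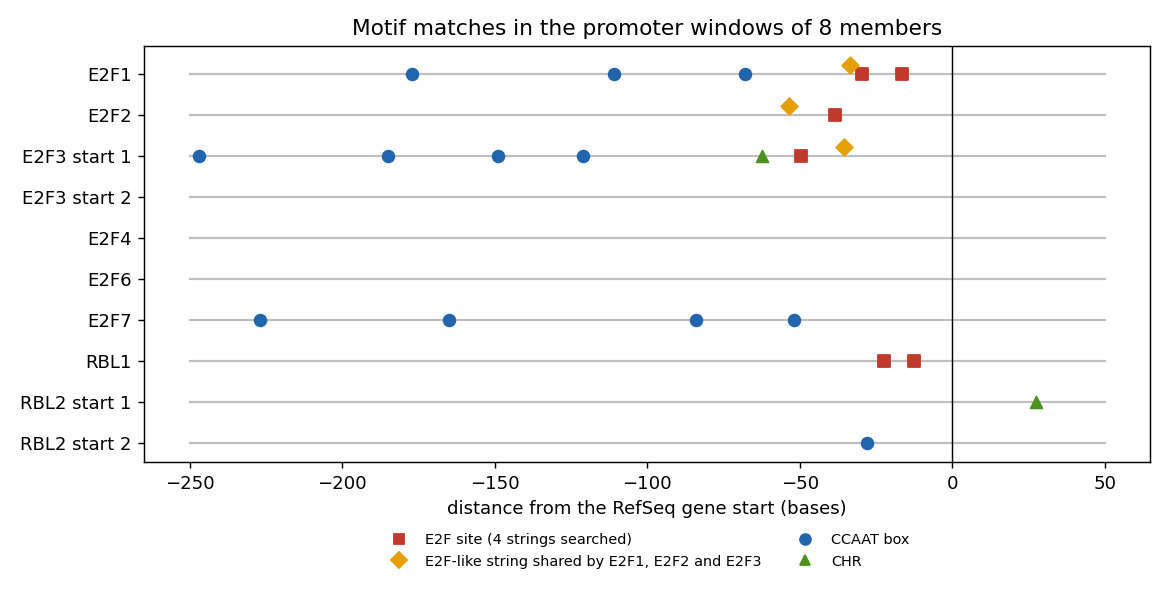
Positions of motif matches in the 10 promoter windows of 8 genes, with the distance from the RefSeq gene start in bases on the x axis and 1 line per window. Red squares are E2F sites, orange diamonds (raised) are TTTCGCGG, blue circles CCAAT boxes and green triangles the CHR. The E2F sites all lie within the 53 bases before the start, in E2F1, E2F2, E2F3 and RBL1.

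E2F1 (ENSG00000101412.13, chromosome 20, 33675477 to 33686385, minus strand, GRCh38) and E2F3 (ENSG00000112242.16, chromosome 6, 20401879 to 20493714, plus strand) were the most abundant activators. E2F1, which can drive both proliferation and cell death, had a mean log2 CPM of 6.37, or 82.9 CPM. E2F3 had the highest value of the 10 genes before division by length, 6.71 or 105 CPM. Its transcript, at 5036 bases, is longer than that of E2F1, at 2690 bases, and per kb the order turned, with 4.95 log2 CPM per kb for E2F1 and 4.38 for E2F3. E2F2 (ENSG00000007968.7, chromosome 1, 23506438 to 23531233, minus strand), known for a part in the divisions of erythroid precursors, was the lowest of the activators, with a mean log2 CPM of 5.70 and 3.32 per kb. The activators thus spanned a range from 10.0 to 30.8 CPM per kb. Each stood above most genes, with 89.2%, 74.4% and 84.6% of genes below E2F1, E2F2 and E2F3 on the scale per kb.

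Among the repressors, E2F4 and E2F5 stood far apart. E2F4 (ENSG00000205250.9, chromosome 16, 67192155 to 67198918, plus strand), the main E2F of resting cells and also a factor of erythroid maturation, had a mean log2 CPM of 6.19. Per kb of the representative transcript it was the highest of all 10 genes at 5.11, or 34.6 CPM per kb. It lost this place to E2F1 with the longest transcript (4.95 against 4.80) and was in place 4 with the coding length, where E2F3 led at 6.23 and E2F4 had 5.88. E2F5 (ENSG00000133740.11, chromosome 8), its closest relative, had the lowest mean log2 CPM of the 10 genes at 3.54, and 2.57 per kb. The difference between E2F4 and E2F5 was 2.54 on the log2 scale per kb, or 5.82-fold, and 3.59 or 12.1-fold with the longest transcript of each gene. On the opposite strand, 16.6% of the exon bases of E2F5 are shared with exons of RBIS, which had a mean log2 CPM of 4.64 under its older name. The libraries were made with a directional kit, but the strand setting of the counting is not given in the sources used here, so the value of E2F5 is uncertain. E2F6 (ENSG00000169016.17, chromosome 2, 11444375 to 11466177, minus strand), the pocket-independent repressor, had a mean log2 CPM of 5.80 and 4.11 per kb, between E2F3 and E2F2. Processed copies of E2F6, E2F3 and E2F4 in the genome can take reads from their parents. The 3 copies of E2F6 that were listed had means between -2.87 and -2.28, and the 1 listed copy of E2F3 had -3.05, all far below their parents. The copies E2F6P4, E2F3P2 and E2F4P1 were not found by name. How reads that match both a copy and its parent were counted is not given in the sources used here. Low values of the copies therefore do not show whether the parents lost reads.

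The endocycle factors were the least abundant class. E2F7 (ENSG00000165891.16, chromosome 12, 77021248 to 77065569, minus strand) had a mean log2 CPM of 4.17 and E2F8 (ENSG00000129173.13, chromosome 11, 19224063 to 19241620, minus strand) had 4.001. Per kb E2F8 was at 2.11 and E2F7 at 1.65, the lowest place among the 10. Both were nevertheless above the median gene, with 63.2% and 59.5% of genes below them. Among the 16339 protein-coding genes with a length, E2F7 sat close to the middle, with 48.6% of genes below it, and E2F8 had 52.7% below.

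The RB-like genes had levels close to each other. RBL1 (ENSG00000080839.12, chromosome 20, 36996349 to 37095997, minus strand), whose protein p107 is most abundant in cycling cells, had a mean log2 CPM of 5.14. RBL2 (ENSG00000103479.17, chromosome 16, 53433977 to 53491648, plus strand), whose protein p130 is the pocket protein of resting cells, had 4.996. Per kb the order was the other way, with 2.64 for RBL1 and 2.72 for RBL2, a difference of -0.08 on the log2 scale. Its sign turned to 0.30 when the longest transcript of each gene was used and to 0.24 with the coding length. Of the exon bases of RBL2, 7.51% are shared with AKTIP on the opposite strand, which had a mean log2 CPM of 0.98.

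**Figure D2:**
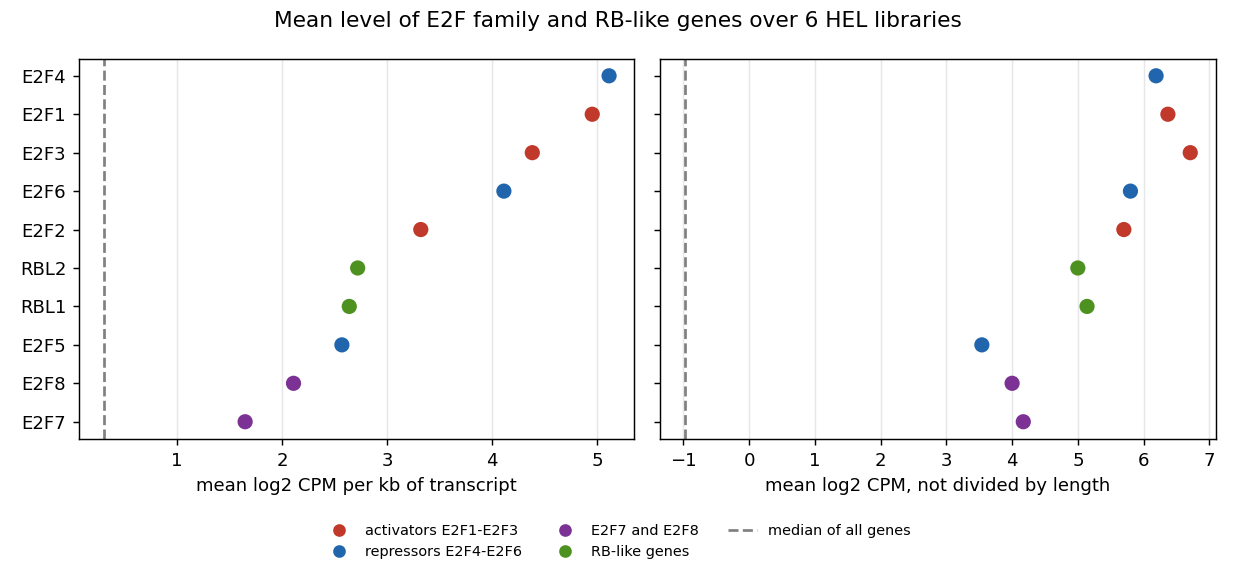
Mean level of the 10 genes, per kb of representative transcript (left) and without division by length (right), both as log2 CPM over the 6 libraries, 1 point per gene, coloured by class, with the median of all genes as a dashed line. E2F4 at 5.11 and E2F1 at 4.95 lead per kb of the representative transcript, E2F3 at 6.71 leads without division, and all points are to the right of the median.

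Class against class, activators and repressors were near balance per kb of the representative transcript, and the endocycle factors were well below both. All RNA of E2F3 was counted with the activators, since 1 value per gene does not separate its 2 starts. The summed level of E2F1, E2F2 and E2F3 was 61.6 CPM per kb, and that of E2F4, E2F5 and E2F6 was 57.8, a difference of 0.09 on the log2 scale. Without division by length the difference was 0.77 in favour of the activators, since E2F2 and E2F3 have long transcripts. E2F7 and E2F8 together reached 7.46 CPM per kb. This was lower than the activators by 3.05 on the log2 scale, so that the activators were 8.25-fold higher, and the repressors were 7.74-fold higher than E2F7 and E2F8. Of the summed level of the 8 E2F genes per kb, activators made up 48.6%, repressors 45.6% and the endocycle factors 5.88%. E2F4 and E2F1 alone accounted for 27.3% and 24.3%. Without division by length the shares of the classes were 57.9%, 33.9% and 8.21%, and E2F3 led with 25.3%, followed by E2F1 with 20.0% and E2F4 with 17.6%.

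The set of genes in the upper places was the same with each length tried, while their order within it changed. With the representative transcript, the longest transcript, the coding length or no length at all, E2F1, E2F3, E2F4 and E2F6 took places 1 to 4 in some order and E2F2 took place 5. The lower places moved among RBL1, RBL2, E2F5, E2F7 and E2F8, and E2F5 ranged from place 6 with the coding length to place 10 with the longest transcript. Gaps between neighbours in the order per kb were between 0.07 and 0.79 on the log2 scale, the widest being that between E2F6 and E2F2. Whether neighbours differ beyond the spread between libraries cannot be said from means.

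All 10 genes were above the median of the genes listed, and 7 of them were above 4.55, the median over those 14000 genes that stood at 0 log2 CPM or higher. The exceptions were E2F5, E2F7 and E2F8. The median of the 10 genes was 5.42 log2 CPM and 3.02 per kb, beside -0.97 and 0.31 over all genes and 1.81 per kb over protein-coding genes. Genes with an E2F site in their promoter window overlapped in level with those without: E2F1, E2F2, E2F3 and RBL1 ranged from 2.64 to 4.95 log2 CPM per kb, and E2F4, E2F6, E2F7 and RBL2 from 1.65 to 5.11.

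**Figure D3:**
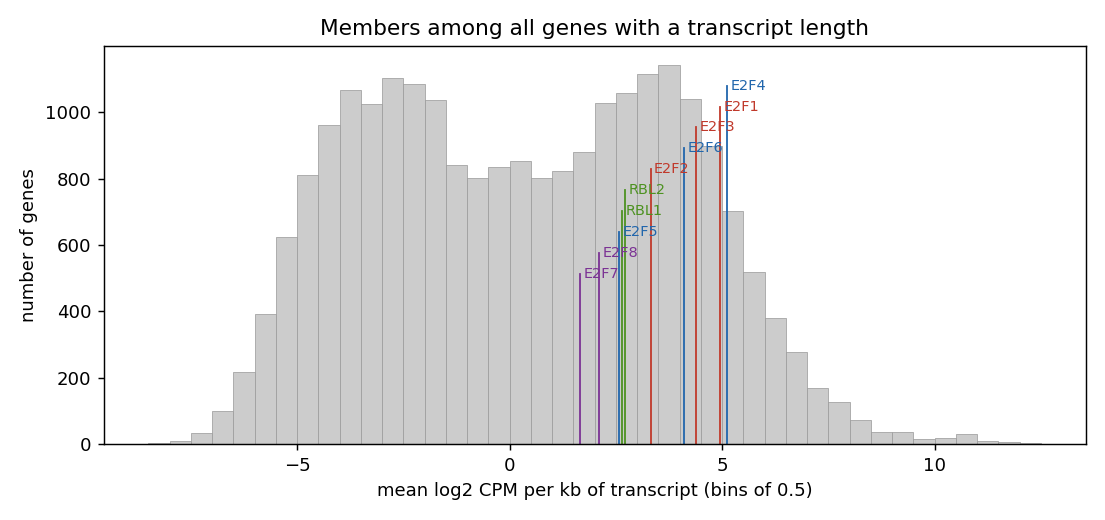
Number of genes (y axis) by mean log2 CPM per kb (x axis, bins of 0.5) for the 22987 genes with a transcript length, with a coloured line for each of the 10 genes (height has no meaning). The 10 lines fall between 1.65 (E2F7) and 5.11 (E2F4), in the upper of the humps of the distribution.

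The partners of these proteins were described from lists of genes chosen for their roles. TFDP1, the main DP partner, had a mean log2 CPM of 7.71 and 6.31 per kb, above every E2F gene. TFDP2 had 7.51 and 4.21 per kb, and TFDP3, a testis gene, was near the lower end of the table at -3.48. TFDP1 and TFDP2 summed to a level per kb that was lower by 0.29 on the log2 scale than the sum of the DP-dependent genes E2F1 to E2F6. The sign of this difference depended on the division by length, which lowered TFDP2 strongly. Without it, TFDP1 had 209 CPM and TFDP2 182 CPM, each above the highest E2F gene, E2F3, at 105. Their undivided sum was slightly above that of E2F1 to E2F6. RB1, the gene of the retinoblastoma protein itself, had a mean log2 CPM of 6.93 and 4.67 per kb, which was 4.1-fold higher than RBL1 and 1.99-fold higher than RBL1 and RBL2 together. The pocket protein genes RB1, RBL1 and RBL2 together were lower than their partners E2F1 to E2F5 by 1.41 on the log2 scale per kb.

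In the MuvB core, which joins E2F4 and the RB-like proteins to form the repressive DREAM complex and joins MYBL2 and FOXM1 to activate mitotic genes, 6 of the 7 genes listed, MYBL2 and FOXM1 included, stood at 0 log2 CPM or higher. RBBP4, a histone-binding subunit shared with many other complexes, was the highest at 8.87. LIN9 had 5.01, LIN54, the subunit that binds the CHR, had 5.05, and LIN52 had 4.09. LIN37 was the exception at -0.14. Of its exon bases, 26.7% are shared with another gene on the same strand and 41.8% with one on the opposite strand, so its value is uncertain. MYBL2 and FOXM1 had 7.46 and 6.43. All 12 genes of the Polycomb complex that holds E2F6 were above 4. The lowest were L3MBTL2 at 4.26, PCGF6 at 4.57 and YAF2 at 5.04. The highest were HDAC2 at 8.41, CBX3 at 8.09 and HDAC1 at 7.95. Per kb these 12 genes spanned 2.59 to 7.05 with a median of 4.48, beside 4.11 for E2F6.

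The E2F target genes of G1/S were present at higher levels than the factors. All 25, of which E2F1 and RBL1 are members of both lists, stood at 0 log2 CPM or higher, with a median of 7.25 and a median per kb of 5.77. The highest were MCM4, part of the replicative helicase, at 9.07, RRM2, a subunit of ribonucleotide reductase, at 9.02, and MCM3 at 8.75. The lowest were the cyclin E genes CCNE1 and CCNE2 at 3.49 and 4.01, followed by RBL1 at 5.14. Per kb, CCNE1 with 2.52 and CCNE2 with 2.59 were at the level of E2F5 and RBL1, with 2.57 and 2.64.

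**Figure D4:**
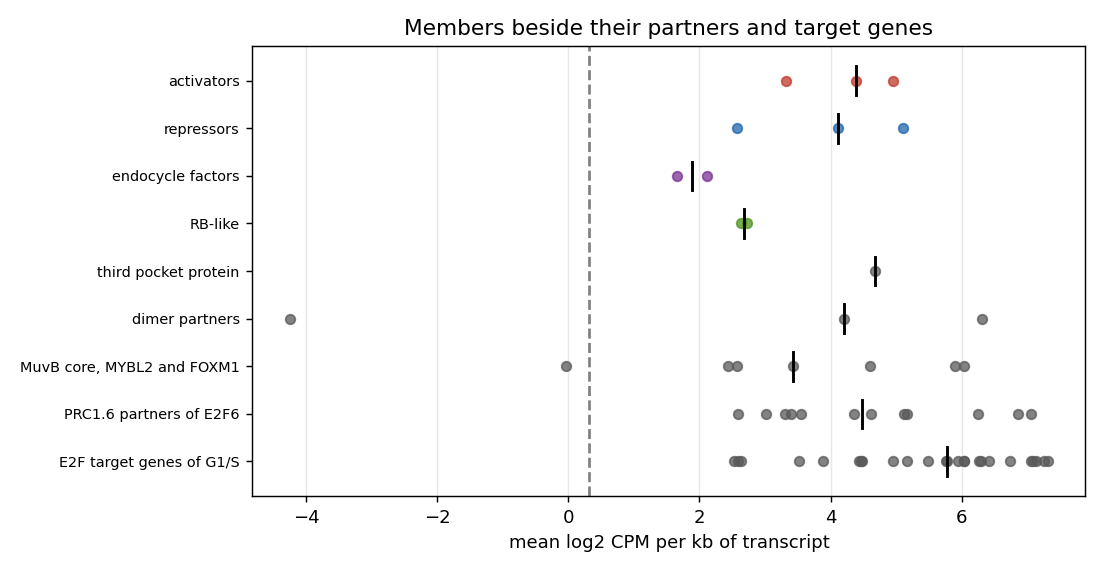
Mean log2 CPM per kb (x axis) of each gene in the member classes (coloured) and in the lists of partners and targets (grey), with a black bar at the median of each list and a dashed line at the median of all genes. The G1/S targets have a median of 5.77, the activators 4.38, the repressors 4.11, the RB-like genes 2.68 and the endocycle factors 1.88, and TFDP3 at -4.24 stands alone on the left.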

How the data were processed

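RNA from 3 shCtrl and 3 shTMIGD2 HEL libraries was sequenced after poly(A) selection with a directional kit, and samples were grouped by their titles. According to the methods and the submitters' processing notes, the authors aligned reads to hg38 with STAR 2.6.1b and counted fragments per gene with HTSeq 0.6.1 on a refSeq annotation. The authors' deposited table lists 31999 genes with a mean log2 CPM over the libraries, and its column names are those of edgeR run by the authors. The methods describe tests by the authors with DESeq2 on genes whose average count reached 1 in either group. Whether this filter was used for the deposited table, and how its values were scaled, is not given in the sources used here. The other 4 columns of values hold the authors' own comparison of the groups (log2 fold change, test statistic, p-value and adjusted p-value) and were not used, so no test was made.

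Here the CPM behind each mean was divided by the length in kb of the GENCODE 44 representative (Ensembl canonical) transcript, and 22987 gene names matched by symbol. Classes were summed on the linear scale. GENCODE and RefSeq promoters share the authors' build. Python 3.11.15 was used, with matplotlib 3.10.9 for figures. The search for E2F sites was tested only for finding sites planted in simulated windows of A and T. Such windows cannot hold an E2F site otherwise, so false matches were not assessed. The members and lists were chosen with earlier results of these data known. All 10 members are named, lists of up to 8 genes were to be named in full, and longer lists by their 3 highest and 3 lowest. Alternatives for length, summary, background and motif were tried.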

Additional observations from a re-analysis of the deposited data

How the results depend on the processing

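The difference between the activator and the repressor sum, 0.09 on the log2 scale per kb, became 0.41 with the longest transcript, 0.38 with the coding length, 0.77 with no division by length and 0.27 with medians in place of sums. It kept its sign in these 4 alternatives. The difference of the E2F7 and E2F8 sum from the activators, -3.05, was again -3.05 with the longest transcript, -3.80 with the coding length and -2.82 with no division. The difference of RBL1 from RBL2, -0.08, turned to 0.30 with the longest transcript, 0.24 with the coding length and 0.15 with no division. The lead of E2F4 per kb passed to E2F1 with the longest transcript and to E2F3 with the coding length or no division. The changes with length follow from the division itself. With the background held to genes at 0 log2 CPM or higher, 7 in place of 10 genes were above the median. E2F sites were found in 4 of 8 genes by TTTNNCGC, against 8.23% of all genes with a window, a larger share than the 3.99% for the 4 strings. The 4 strings searched before the start only also gave 4 of 8 genes. GGCGGGAA was in 1 of 8, against 3.79% of all genes. TTTCGCGG, chosen after the promoters had been seen, was in 3, against 0.509%. No paired analysis was possible because the mean log2 CPM is 1 value over all libraries, and for the same reason no library could be left out. Depth per library is unknown, so the precision of each mean cannot be given.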
